A study of Mus musculus with 16 samples.

Results

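The response of control neutrophils to stimulation was followed over all genes that were counted, and above all in transcription factors, secreted factors, surface receptors and the genes that were lowered. The comparison takes the 7 control libraries among the 16 bulk RNA-Seq libraries of the series. They were chosen by their labels as control libraries without Cre, 4 of them stimulated (libraries 80, 81, 82 and 83) and 3 unstimulated (libraries 71, 72 and 73). The mice were 8 weeks old, of strain C57/Bl6, and Cre-negative littermates of Ltbr fl/fl × Mrp8-Cre animals (LTβRΔN), so the control neutrophils keep the lymphotoxin β receptor, and all 7 libraries carry no neutrophil deletion. Neutrophils were taken from blood by negative selection with magnetic beads, which removes other cells and does not pick neutrophils by a marker of their own. The treatment protocol describes 2 h in 100 ng/ml TNF, 50 ng/ml IL-6 and 100 ng/ml GM-CSF, to which 500 ng/ml soluble LIGHT was or was not added, while the design text of the series sets culture with cytokines against culture without them. No label states for a given library whether LIGHT or any cytokine was added, so the groups are called stimulated and unstimulated, as labelled. The labels do not say that libraries of a group came from separate mice. The p-values measure the spread between libraries of a group, pooled over all 16 libraries of the series, and this spread may be technical.

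Neutrophils are short-lived white blood cells that leave the marrow with their granule proteins already made, and much of what they can still change within hours is done by transcription. TNF acts through its receptors on NF-κB and on MAP kinases, IL-6 acts mainly through STAT3, and GM-CSF acts through STAT5 and the ERK pathway. LIGHT is a TNF family ligand of the lymphotoxin β receptor, which feeds into NF-κB. Each of these pathways also switches on its own brakes, such as the inhibitor IκBα (Nfkbia) and the ubiquitin-editing enzyme A20 (Tnfaip3) for NF-κB, the SOCS proteins and Cish for STAT signals, and dual specificity phosphatases for MAP kinases.

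The libraries held 6594594 to 11932653 counts in the unstimulated and 4437039 to 11023928 counts in the stimulated group. Levels are given as CPM, a gene's counts scaled by library size with TMM factors, and are not divided by gene length, so they compare groups for a gene and not genes with each other. Values of single libraries are given in the order 71, 72 and 73, and 80, 81, 82 and 83. Markers of mature neutrophils were high in all 7 libraries, with a summed level over 9 genes of 59106 to 71120 CPM in unstimulated and 52279 to 67727 CPM in stimulated libraries. Of the monocyte genes, Ccr2 and Cx3cr1 had 0 counts in all 7 libraries, and the sum over 9 genes was 739 to 800.3 CPM and 625 to 750.1 CPM. Sums over the marker lists were at most 1.22 CPM for B cells, 6.08 CPM for erythroid cells, 0.793 CPM for basophils and mast cells, 7.91 CPM for eosinophils and 16.1 CPM for T and NK cells. Stimulated library 82 stood apart in platelet genes (192 CPM against 6.46 to 54.3 CPM in the other 6 control libraries) and in immature neutrophil genes (817 CPM against 91.1 to 353 CPM), while Elane, Mpo, Ctsg and Fcnb of the latter list had 0 counts in all 7. Of 27 tested marker genes, 0 passed edgeR's test between stimulated and unstimulated libraries, 6 had an unadjusted p under 0.05 and 1, of the immature neutrophil list, passed by DESeq2. Without library 82 the number of changed genes was 315 in place of 321. Ltbr itself was at 101, 93.6 and 154 CPM in the unstimulated and 97.0, 105, 84.6 and 148 CPM in the stimulated libraries. Its groups overlapped, and its log2 fold change of -0.09 did not pass (edgeR adjusted p = 0.983).

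Stimulation raised more genes than it lowered. In all, 321 of 9213 genes passed an adjusted p of 0.05 (3.48%, edgeR quasi-likelihood test, Benjamini-Hochberg over all tested genes), and 260 of them (2.82%) rose while 61 (0.662%) fell. The rise was steep for a small group of genes, with 59 at 8-fold or more, 133 between 2-fold and 8-fold and 68 under 2-fold. The falls were flatter, with 9 at 4-fold or more, 25 between 2-fold and 4-fold and 27 under 2-fold. The genes that fell started from a higher level, with a median of 208 CPM in unstimulated libraries against 65.2 CPM for the genes that rose and 15.4 CPM over all tested genes. The unstimulated level is itself part of the test, and a gene near 0 counts can pass as raised but not as lowered. The difference in starting level is therefore not a separate result. In a bulk library, fewer cells that make a transcript and less of it per cell cannot be told apart. The stimulated and unstimulated libraries were apart, with no overlap, for 259 of 260 raised and 60 of 61 lowered genes, where 12.7% of all tested genes did not overlap. The median log2 fold change over all tested genes was -0.024. When libraries were scaled by their totals alone this median was -0.27 and the calls split into 201 higher and 272 lower genes, and all 260 and 61 genes kept their sign there. Unstimulated libraries 71 and 72 carry index S520 and library 73 index S521, as do all 4 stimulated libraries. In the LTβRΔN groups all unstimulated libraries carry S520 and all stimulated ones S521. With the index in the model, library 73 alone is thus in effect set against the 4 stimulated libraries. The sign was kept there for all 321 genes. These genes were chosen from the same libraries, and nearly all had groups without overlap, so a kept sign is not separate support. Where a call is said below to be lost with the index, index and library 73 cannot be told apart.

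**Figure D1:**
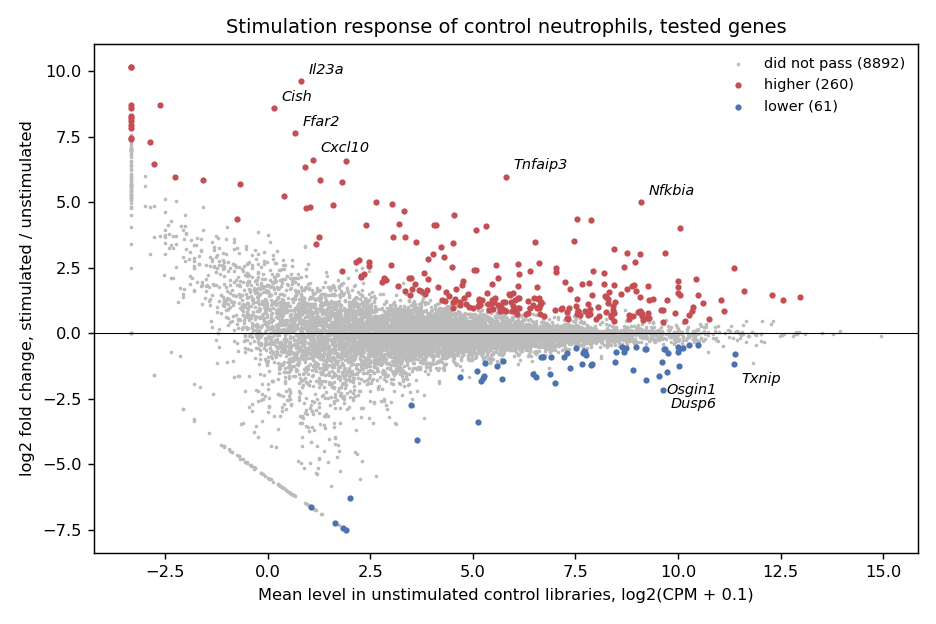
Log2 fold change of the control libraries with stimulation (vertical axis) against the mean unstimulated level as log2(CPM + 0.1) (horizontal axis) for 9213 tested genes, with the 260 higher genes in red, the 61 lower genes in blue and the rest in gray. Genes counted 0 times in every unstimulated library form the column at the left edge, and their fitted fold changes depend on the prior count of the model.

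The smallest p-values belonged to Tnfaip3 and Nfkbia, both inhibitors of NF-κB. Tnfaip3, on chromosome 10 of GRCm38 from 19000910 to 19015657, encodes A20, which removes activating ubiquitin chains upstream of NF-κB. It stood at 40.8, 47.7 and 79.4 CPM in the unstimulated and 3627, 3743, 3469 and 3212 CPM in the stimulated libraries. Nfkbia, on chromosome 12 from 55489410 to 55492647, encodes IκBα, which holds NF-κB in the cytoplasm. It stood at 369, 506 and 768 CPM in the unstimulated and 17776, 18682, 16963 and 16684 CPM in the stimulated libraries. For both genes the lowest stimulated library lay far above library 73, the highest of the unstimulated ones. Cish, on chromosome 9 from 107296026 to 107302784, encodes an SH2 protein that is a classical STAT5 target and restrains cytokine receptors. It went from near absence, with 1.67, 0.793 and 0.561 CPM in the unstimulated and 589, 468, 409 and 272 CPM in the stimulated libraries, and the standard error of its log2 fold change of 8.60 was 0.51 (edgeR adjusted p = 2.68e-11). Among all genes, Sod2, the mitochondrial superoxide dismutase and a known NF-κB target, rose by 4.51 on the log2 scale. Pde4b, a phosphodiesterase that breaks down cAMP, rose by 3.01. The kinase gene Pim1, a STAT target, rose by 2.67.

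Promoters of some genes that rose are shown because NF-κB, STAT and AP-1 sites are the classical entry points of these cytokines. Each is the RefSeq window of 250 bases before to 50 bases after a transcription start on GRCm38.p6, read 5′ to 3′ on the gene's strand, and capitals mark every match to the STAT motif TTCNNNGAA, to the AP-1 motif TGANTCA or to the NF-κB consensus, searched on both strands. Matches that overlap are marked as 1 stretch, and a gene with several starts has several windows. Tnfaip3 is shown at chr10:19015361-19015660 and Nfkbia at chr12:55492598-55492897, both on the minus strand. Cish is shown at chr9:107296409-107296708 on the plus strand. Irf1 (chr11:53769764-53770063, plus strand), an interferon regulatory factor described below, is shown as it holds a STAT and an NF-κB match together, and Cxcl10 (chr5:92348840-92349139, minus strand) as a chemokine gene that rose steeply.
Tnfaip3: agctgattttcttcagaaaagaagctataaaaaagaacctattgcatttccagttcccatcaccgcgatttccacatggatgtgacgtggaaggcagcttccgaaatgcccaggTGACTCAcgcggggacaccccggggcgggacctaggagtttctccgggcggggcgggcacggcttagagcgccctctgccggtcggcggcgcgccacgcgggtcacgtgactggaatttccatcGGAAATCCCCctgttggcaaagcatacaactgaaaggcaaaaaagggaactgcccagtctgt
Nfkbia: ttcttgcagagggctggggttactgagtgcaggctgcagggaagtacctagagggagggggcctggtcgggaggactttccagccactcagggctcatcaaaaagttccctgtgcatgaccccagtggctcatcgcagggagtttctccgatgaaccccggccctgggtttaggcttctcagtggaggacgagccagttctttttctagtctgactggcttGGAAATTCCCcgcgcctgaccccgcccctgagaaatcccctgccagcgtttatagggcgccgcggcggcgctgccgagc
Cish: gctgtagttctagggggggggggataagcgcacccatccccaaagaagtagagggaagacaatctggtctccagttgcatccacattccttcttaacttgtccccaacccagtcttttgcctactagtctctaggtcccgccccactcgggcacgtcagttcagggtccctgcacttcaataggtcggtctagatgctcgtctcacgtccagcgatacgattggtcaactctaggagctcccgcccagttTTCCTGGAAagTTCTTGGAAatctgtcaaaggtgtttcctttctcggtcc
Irf1: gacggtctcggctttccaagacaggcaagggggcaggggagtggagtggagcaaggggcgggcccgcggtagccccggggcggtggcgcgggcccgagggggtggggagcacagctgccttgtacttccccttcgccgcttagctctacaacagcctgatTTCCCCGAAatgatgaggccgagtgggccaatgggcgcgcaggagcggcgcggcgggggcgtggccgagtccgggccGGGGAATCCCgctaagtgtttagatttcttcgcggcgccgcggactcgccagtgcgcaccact
Cxcl10: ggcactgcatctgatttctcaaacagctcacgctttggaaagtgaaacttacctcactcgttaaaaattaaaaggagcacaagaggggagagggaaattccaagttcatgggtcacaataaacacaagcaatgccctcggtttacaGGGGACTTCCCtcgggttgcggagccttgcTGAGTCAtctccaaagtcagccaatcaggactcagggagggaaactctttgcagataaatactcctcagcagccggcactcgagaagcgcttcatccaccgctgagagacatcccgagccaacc
Cish holds a pair of STAT matches side by side at its start, and Tnfaip3 an AP-1 and an NF-κB match. Cxcl10 holds an NF-κB site that matches in overlapping registers and an AP-1 match. Over all promoters of the genes that rose, the NF-κB consensus was in 35 of 283 windows (12.4%), against 7.17% of the windows of all tested genes and 5.8% of all windows in the reference table. It was in 0 of 52 windows of the genes that fell. The STAT motif was in 37 of the 283 windows of higher genes (13.1%) and in 2 of the 52 of lower genes (3.85%), against 6.92% for all tested genes and 8.3% for the reference. AP-1 matches were in 7.77%, 3.85%, 5.04% and 7.81% of these windows. These shares are descriptions of short windows, and a match is a stretch of letters and not a bound site.

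Transcription factors changed in both directions, and most of those that changed were raised. The gene lists here and below were written with earlier results of these data known. A share above that of all genes may therefore come from the choice of members. Of 376 listed factors 374 were in the table and 253 were tested, and 25 rose and 4 fell (11.5% changed, against 3.48% of all tested genes). Their median log2 fold change was 0.076, 0.10 above that of all genes. With the library index in the model 16 of them passed. The 25 that rose lay between 0.54 (Nfe2l2, the antioxidant factor NRF2) and 4.10 (Id1) on the log2 scale, and 20 of them changed at least 2-fold.

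The dimerization inhibitor Id1, which keeps basic helix-loop-helix factors from binding DNA, had 33.2, 40.6 and 45.2 CPM in the unstimulated and 698, 708, 774 and 539.7 CPM in the stimulated libraries. Its log2 fold change was 4.10 with a standard error of 0.21 (edgeR adjusted p = 3.41e-12). Its relative Id2 moved the other way, with 31.6, 39.4 and 45.1 CPM in the unstimulated and 8.11, 15.7, 12.3 and 13.9 CPM in the stimulated libraries. The groups of both genes were apart, Id1 with every stimulated library above and Id2 with every stimulated library below the unstimulated ones. The call for Id2 (log2 fold change -1.64, edgeR adjusted p = 0.00782) was lost with the library index (edgeR adjusted p = 0.0618) and without unstimulated library 73. Irf1, which drives interferon-type and inflammatory genes, had 489, 468 and 460.3 CPM in the unstimulated and 1611, 1685, 1626 and 1658 CPM in the stimulated libraries. Egr1, an immediate early zinc-finger factor, had 516, 350.1 and 431 CPM in the unstimulated and 3679.7, 3951, 3727 and 3240.2 CPM in the stimulated libraries. The small MAF factor Maff rose from a low level, with 5.48, 9.18 and 9.97 CPM in the unstimulated and 121, 113, 110.1 and 73.5 CPM in the stimulated libraries. These 3 factors rose by 1.80, 3.08 and 3.68 on the log2 scale, and no library of Irf1 or Egr1 came near the other group. Nfkbiz, a nuclear IκB protein that NF-κB needs for a set of secondary targets, had 164, 219.6 and 348 CPM in the unstimulated and 1618, 1153, 1112 and 1191 CPM in the stimulated libraries, with library 80 above the other 3 stimulated libraries. Csrnp1, an early nuclear factor, rose by 1.87 on the log2 scale (edgeR adjusted p = 7.81e-08).

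**Figure D2:**
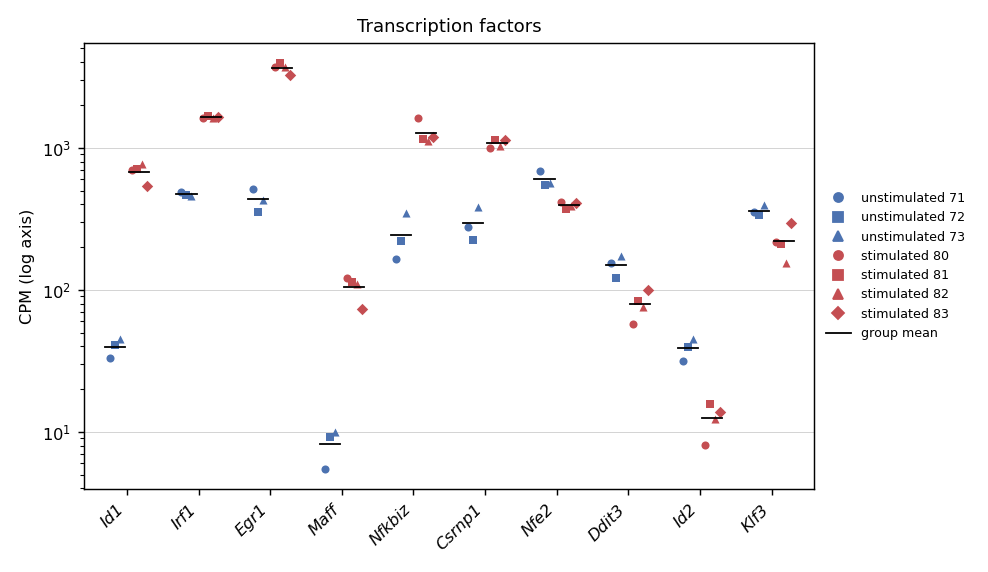
CPM on a log axis in each of the 3 unstimulated (blue) and 4 stimulated (red) control libraries for the transcription factors named by rule, with a black bar at each group mean. The 6 factors on the left rose and the 4 on the right fell, and the groups do not overlap for any of the 10.

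By family, the NF-κB subunits and nuclear IκB proteins had 5 of 8 tested members higher and 0 lower by edgeR, all 8 above 0, and 6 higher and 0 lower by DESeq2. Beside Nfkbiz, and named after their values were seen, these were Nfkbid (1.31), Relb (1.26), Nfkb2 (1.20) and Rel (1.18, all log2 fold changes). The 2 noncanonical partners Nfkb2 and Relb, which LTβR and related receptors use, thus rose by about the same amount, from 53.4 to 122 CPM and from 37.2 to 89.5 CPM. Among 18 tested AP-1 and small MAF factors 3 rose and 0 fell by edgeR, with 3 lower at an unadjusted p under 0.05 and 1 lower by DESeq2. Junb (log2 fold change 1.47) and Fosl2 (1.01), AP-1 subunits named after their values were seen, rose with Maff, while Fos (from 3664 ± 2663 (SD, n = 3) to 1663 ± 922 (SD, n = 4) CPM) did not pass (edgeR adjusted p = 0.212). Of 9 tested early factors 3 rose, with Egr2 at 2.85 beside Egr1 and Csrnp1. In the STAT and IRF list only Irf1 of 13 tested genes passed. Of the forkhead factors and nuclear receptors, 0 of 24 tested passed by edgeR, with 2 at an unadjusted p under 0.05, and 1 passed by DESeq2. Other factors that rose, chosen after their values were seen, were Xbp1, the factor of the unfolded protein response and of secretory cells (1.52), Bhlhe40 (2.54), Snai1 (1.53) and Klf5 (1.46).

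The factors that fell were few. Nfe2, the bZIP partner of small MAF proteins in blood cells, had 683, 543 and 568 CPM in the unstimulated and 412, 372, 391 and 409 CPM in the stimulated libraries. Ddit3, which encodes the stress factor CHOP, had 153, 121 and 173 CPM in the unstimulated and 57.8, 84.0, 75.9 and 100.3 CPM in the stimulated libraries. Klf3, a repressor of the Krüppel-like family, had 351, 335 and 393 CPM in the unstimulated and 217, 209, 154 and 297 CPM in the stimulated libraries. In each of the 3 the lowest unstimulated library was above the highest stimulated one, by a small margin in Klf3. Nfe2 was lost with the index (edgeR adjusted p = 0.187), Ddit3 without library 73, and Klf3 (log2 fold change -0.71, edgeR adjusted p = 0.0229) with the index, in a fit of control libraries alone and without each of the control libraries except 83.

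Secreted factors held some of the steepest rises. Of 243 listed genes 101 were tested, and 21 rose and 1 fell (21.8% changed, against 3.48% of all tested genes), with a median log2 fold change of 0.30, 0.33 above that of all genes. Leaving out 4 genes of near-zero unstimulated counts, those that rose lay between 0.77 (Ltb) and 9.61 (Il23a) on the log2 scale, and 7 of these 17 started under 10 CPM. When 10 counts were required in every control library, which drops genes that start at zero, 13 of 73 tested secreted factors passed. Over all genes tested in that setting, 314 of 6186 passed. The median of the secreted factors there was 0.092, no more than 0.093 above that of all genes.

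Il23a encodes the p19 subunit of IL-23, which supports IL-17-producing lymphocytes, and lies on chromosome 10 from 128296139 to 128298752. It had 0.532, 1.25 and 3.23 CPM in the unstimulated and 1182, 1355, 1346 and 811 CPM in the stimulated libraries, a log2 fold change of 9.61 with a standard error of 0.53 (edgeR adjusted p = 8.84e-12). It was barely detected in any unstimulated library and abundant in all 4 stimulated ones, with library 83 the lowest. The chemokine Cxcl3, a CXCR2 ligand that recruits neutrophils, had 5.86, 6.12 and 6.32 CPM in the unstimulated and 212, 204, 165 and 214 CPM in the stimulated libraries. Cxcl10, the CXCR3 ligand that attracts activated T cells, had 0.913, 0.566 and 4.63 CPM in the unstimulated and 198, 199, 216 and 129 CPM in the stimulated libraries. Neither chemokine had a library near the other group. The IL-1 family cytokine Il1a had 6.77, 3.29 and 0.983 CPM in the unstimulated and 462, 387, 401 and 237 CPM in the stimulated libraries. Its reads cannot be told from those of the antisense transcript Gm14023, which overlaps it on the other strand and also rose, since the strand setting of the counting is not given in the sources used here. Il1f9, which encodes IL-36γ, was already high, with 1139, 905 and 1039.7 CPM in the unstimulated and 3667, 3477, 3979 and 2740.3 CPM in the stimulated libraries. Hbegf, a growth factor that binds the EGF receptor, had 0.228, 6.005 and 4.07 CPM in the unstimulated and 231, 203, 151 and 129 CPM in the stimulated libraries, and library 71 alone had fewer than 1 CPM. Log2 fold changes were 5.03 for Cxcl3, 6.62 for Cxcl10, 6.55 for Il1a, 1.75 for Il1f9 and 5.77 for Hbegf.

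The secreted gene that fell was Thbs1, which encodes the matrix and platelet glycoprotein thrombospondin 1. It had 152, 161 and 185 CPM in the unstimulated and 71.6, 80.4, 42.2 and 72.4 CPM in the stimulated libraries. The fall (by 1.32 on the log2 scale with a standard error of 0.22, edgeR adjusted p = 2.74e-04) stood beside platelet genes that summed to 6.46 to 22.1 CPM in unstimulated and 8.49 to 192 CPM in stimulated libraries, with overlapping groups and no called gene, and their part in it was not tested.

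By family, 4 of 12 tested chemokines, 6 of 18 interleukins, interferons and colony-stimulating factors, 3 of 7 TNF family ligands and 2 of 9 growth factors rose, and 0 fell in any of these 4 lists by edgeR or DESeq2, with 1 lower gene at an unadjusted p under 0.05. Named after their values were seen, the neutrophil chemoattractant Cxcl2 went from 237 ± 189.9 (SD, n = 3) to 4750.1 ± 219 (SD, n = 4) CPM, while Ccl3 (from 106 ± 72.8 (SD, n = 3) to 237 ± 80.9 (SD, n = 4) CPM) did not pass (edgeR adjusted p = 0.192). Il1b, which encodes the precursor of IL-1β, went from 7986 ± 2570.4 (SD, n = 3) to 20867 ± 3036 (SD, n = 4) CPM, and its natural antagonist Il1rn from 507 ± 15.2 (SD, n = 3) to 1554 ± 221 (SD, n = 4) CPM. Osm, which encodes oncostatin M of the IL-6 family, went from 1380.2 ± 1046 (SD, n = 3) to 5834 ± 792 (SD, n = 4) CPM. Cytokine and antagonist of the IL-1 system thus rose side by side, by 1.39 and 1.62 on the log2 scale. In the TNF family, Tnf itself went from 9.05 ± 6.09 (SD, n = 3) to 161 ± 51.5 (SD, n = 4) CPM. Ltb, which encodes a subunit of a ligand of LTβR, rose less, by 0.77 on the log2 scale. Its partner Lta had 0 counts in all 3 unstimulated libraries and 207 in the 4 stimulated ones, at least 67.6-fold higher than the 3 counts per group that a count of 0 allows. The protease inhibitor Serpinb2 (0 against 713 counts) was at least 233-fold and the chemokine Cxcl11 (0 against 159 counts) at least 51.9-fold higher on the same floor. The acute-phase gene Saa3 had 2 counts in unstimulated and 1100 in stimulated libraries, a ratio of pooled CPM of 539 with a 95% counting interval of 149 to 4453. These floors and intervals cover counting error only.

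**Figure D3:**
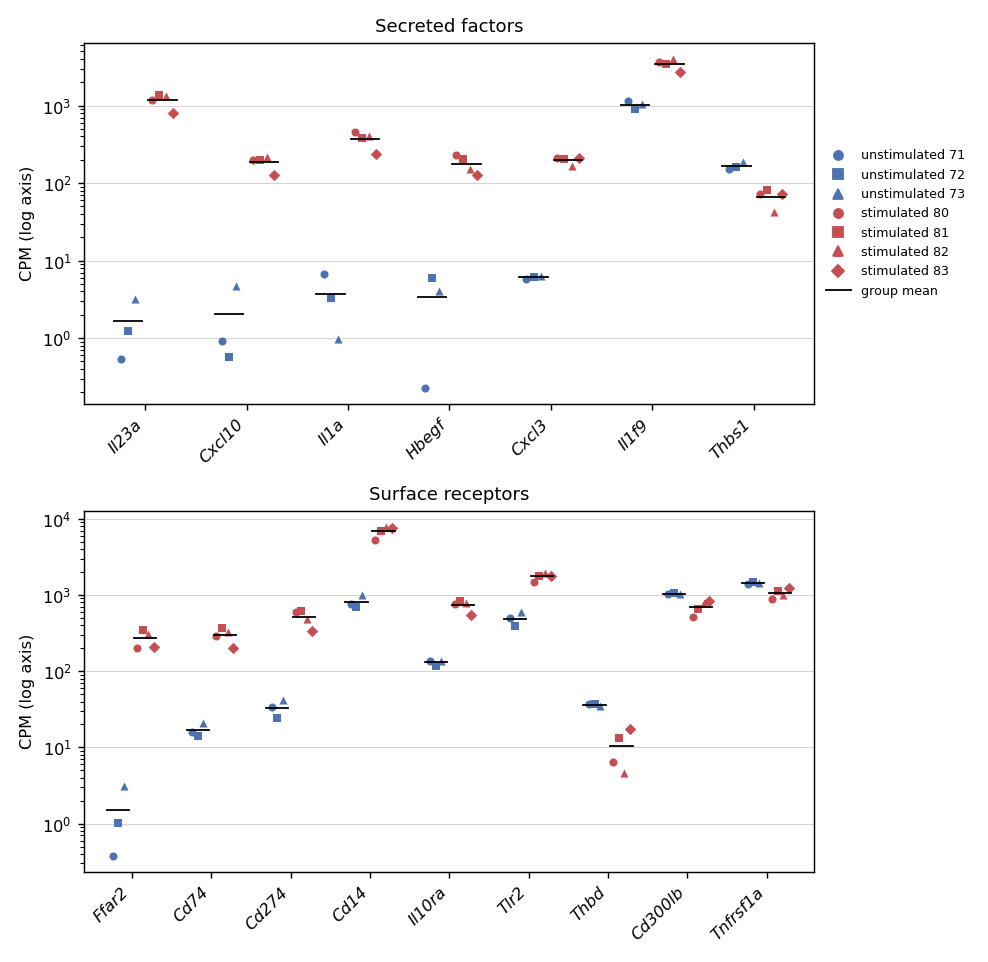
CPM on a log axis in each unstimulated (blue) and stimulated (red) control library for the secreted factors (top) and surface receptors (bottom) named by rule, with a black bar at each group mean. Il23a, Cxcl10, Il1a, Hbegf, Cxcl3 and Ffar2 rose from under 10 CPM in every unstimulated library to over 100 CPM in every stimulated one, and Thbs1, Thbd, Cd300lb and Tnfrsf1a were lower in every stimulated library.

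Most surface receptors did not pass the test, and most of those that did were raised. Of 402 listed genes 396 were in the table and 247 were tested, and 36 rose and 3 fell (15.8% changed, against 3.48% of all tested genes). Their median log2 fold change was 0.095, 0.12 above that of all genes, and with the library index in the model 21 passed. The scaling by totals alone set the medians of the transcription factor and receptor classes below 0 (-0.17 and -0.14) with that of all genes at -0.27, so that the distance to all genes stayed at 0.10 and 0.13.

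Ffar2, the receptor for short-chain fatty acids such as acetate, had the steepest rise among receptors when 2 genes of near-zero unstimulated counts were left out. It had 0.380, 1.02 and 3.09 CPM in the unstimulated and 203, 352, 310.4 and 209.6 CPM in the stimulated libraries. Its log2 fold change was 7.65 with a standard error of 0.45 (edgeR adjusted p = 2.68e-11). Cd14, the lipopolysaccharide co-receptor of TLR4, had 764, 703 and 984 CPM in the unstimulated and 5280.5, 6840.4, 7795 and 7542 CPM in the stimulated libraries. Tlr2, a sensor of bacterial lipoproteins, had 493, 388 and 591 CPM in the unstimulated and 1492, 1792, 1932 and 1791 CPM in the stimulated libraries. The pattern sensors Cd14 and Tlr2 were thus already present and rose by 3.07 and 1.84 on the log2 scale, with no overlap between groups. Cd274, which encodes the T cell checkpoint ligand PD-L1, had 33.9, 24.4 and 41.8 CPM in the unstimulated and 590.4, 609, 487 and 338 CPM in the stimulated libraries. Il10ra, the ligand-binding chain of the IL-10 receptor, had 138, 117 and 137 CPM in the unstimulated and 753, 840.1, 790.3 and 549.7 CPM in the stimulated libraries. Library 83 was the lowest stimulated library for Cd274 and Il10ra and all the same far above the unstimulated ones. Cd74, the invariant chain of MHC class II and a receptor for MIF, had 15.9, 14.3 and 21.1 CPM in the unstimulated and 288, 364, 331 and 204 CPM in the stimulated libraries. B cells also express Cd74. The B cell markers summed to at most 1.22 CPM and the monocyte markers to 625 to 800.3 CPM in these libraries. The part of other cells in the rise of Cd74 was not tested. The microRNA gene Mir5107, which lies within Cd74 on the same strand and passed the test from 0 unstimulated counts, cannot be told from Cd74 by these counts.

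By family, the Toll-like, C-type lectin and scavenger receptors had 9 of 30 tested members higher and 0 lower by edgeR and by DESeq2, with 2 lower at an unadjusted p under 0.05. Beside Cd14 and Tlr2, and named after their values were seen, these were the oxidized lipid receptor Olr1 (log2 fold change 3.67), the lectins Clec4e (1.01), Clec4n (1.47), Clec5a (1.17) and Clec7a (0.54), and Tlr6 (0.99) and Tlr4 (0.76). The G protein-coupled receptors other than chemoattractant receptors had 7 of 30 higher and 0 lower by edgeR, 8 higher and 0 lower by DESeq2, and 1 lower at an unadjusted p under 0.05. Named after their values were seen, Gpr84, a receptor for medium-chain fatty acids, went from 2.30 ± 2.03 (SD, n = 3) to 142 ± 54.8 (SD, n = 4) CPM, and Niacr1, a receptor for hydroxybutyrate and niacin, from 3120.5 ± 1301 (SD, n = 3) to 9602 ± 2226 (SD, n = 4) CPM. The adenosine receptor Adora3 rose by 4.12 and the proton sensor Gpr65 by 1.55 on the log2 scale. Of 24 chemoattractant and lipid mediator receptors 4 rose, with Ccrl2 at 2.52, Ptafr at 1.38, Ccr1 at 1.14 and Fpr2 at 0.98. Cxcr2, the main chemokine receptor of neutrophils and a marker here (from 1550.3 ± 40.8 (SD, n = 3) to 1271 ± 170.2 (SD, n = 4) CPM), did not pass (edgeR adjusted p = 0.264). Of 44 cytokine and growth factor receptors 3 rose, among them Csf2rb, the shared signaling chain of the GM-CSF receptor, by 0.65. Its reads may be split with the near-identical Csf2rb2. The adhesion molecule Icam1 went from 16.4 ± 3.53 (SD, n = 3) to 292 ± 86.8 (SD, n = 4) CPM, and tissue factor (F3), the trigger of coagulation, from 1.78 ± 1.59 (SD, n = 3) to 130.5 ± 34.7 (SD, n = 4) CPM. The early activation marker Cd69 rose by 3.03 on the log2 scale.

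The 3 receptors that fell had small or uncertain changes. Thbd, which encodes thrombomodulin, an anticoagulant cofactor, had 37.1, 37.2 and 35.1 CPM in the unstimulated and 6.49, 13.3, 4.66 and 17.2 CPM in the stimulated libraries. It was thus lower in all 4 stimulated libraries while tissue factor was higher, but its call (log2 fold change -1.82, edgeR adjusted p = 0.00564) was lost with the library index (edgeR adjusted p = 0.15) and in a fit of the control libraries alone. Cd300lb, an activating immunoglobulin-like receptor, had 1037, 1072 and 1024 CPM in the unstimulated and 521.4, 650.3, 784 and 839 CPM in the stimulated libraries. Tnfrsf1a, which encodes TNF receptor 1, had 1392, 1495 and 1419 CPM in the unstimulated and 891, 1119.8, 996 and 1237 CPM in the stimulated libraries. The log2 fold changes of Cd300lb and Tnfrsf1a were -0.58 and -0.44, and both were lost with the index, in the fit of control libraries alone and without each of libraries 71, 72, 73, 80 and 81, Tnfrsf1a also without library 82. Of the 14 tested TNF receptor family genes it was the 1 that passed by edgeR, while DESeq2 called 1 lower and 1 higher.

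Feedback regulators were raised in some lists and mixed or lowered in others. In the NF-κB feedback and adaptor list 8 of 23 tested genes rose and 0 fell, in the SOCS, PIM and JAK list 5 of 14 rose and 0 fell, and in the list of mRNA decay regulators 3 of 11 rose and 0 fell. The counts of these 3 lists were the same by DESeq2, and 0 of their genes were lower at an unadjusted p under 0.05. Over all tested genes, the background for these lists and those below, 2.82% rose and 0.662% fell. Socs3, the inhibitor of IL-6 receptor signaling, named after its values were seen, went from 1059 ± 476 (SD, n = 3) to 17235 ± 2467 (SD, n = 4) CPM. Zfp36, which encodes tristetraprolin, a protein that destroys cytokine mRNAs, had 1560.3, 1686 and 4637 CPM in the unstimulated and 15899, 15109, 13348 and 15123 CPM in the stimulated libraries. Zc3h12a, which encodes the mRNA endonuclease regnase-1, had 16.9, 29.8 and 33.5 CPM in the unstimulated and 79.2, 111, 99.2 and 96.1 CPM in the stimulated libraries. For Zfp36 unstimulated library 73 stood well above the other unstimulated libraries and still under the lowest stimulated one. Ier3, an early gene that prolongs ERK signals, had 148, 155 and 251 CPM in the unstimulated and 3520.2, 3445, 3841 and 4451 CPM in the stimulated libraries.

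The MAP kinase phosphatases split. Dusp2, a nuclear phosphatase of ERK and p38, had 78.4, 91.0 and 105 CPM in the unstimulated and 1043, 1195, 972 and 863 CPM in the stimulated libraries. Dusp6, a cytoplasmic phosphatase of ERK on chromosome 10 from 99263231 to 99267489, had 826, 799 and 759 CPM in the unstimulated and 187, 162, 147 and 220.5 CPM in the stimulated libraries. Dusp5, a nuclear ERK phosphatase, had 107, 67.5 and 91.1 CPM in the unstimulated and 9.05, 34.6, 33.5 and 43.2 CPM in the stimulated libraries. Dusp2 rose by 3.48 and Dusp6 and Dusp5 fell by 2.15 and 1.56 on the log2 scale, with no overlap between groups in any of the 3. The call for Dusp5 was lost with the library index (edgeR adjusted p = 0.128), in the fit of control libraries alone and without unstimulated library 71.

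Of 17 BCL2 family and caspase inhibitor genes 5 rose and 0 fell by edgeR, 6 rose and 0 fell by DESeq2, and 1 was lower at an unadjusted p under 0.05. The prosurvival paralogs Bcl2a1b (11.3, 10.8 and 7.58 CPM in the unstimulated and 292, 276, 256 and 176 CPM in the stimulated libraries) and Bcl2a1a (1.98, 2.04 and 1.82 CPM in the unstimulated and 57.3, 71.4, 55.5 and 36.3 CPM in the stimulated libraries) are near-identical, so the division of reads between them is uncertain. Both rose, as did Mcl1, the main survival protein of neutrophils, named after its values were seen (log2 fold change 1.27). Of 20 growth arrest and stress genes 6 rose and 1 fell, with Gadd45b at 140.3, 151 and 238 CPM in the unstimulated and 1933, 2034, 1744 and 2483 CPM in the stimulated libraries and Ccng2, a cyclin of arrested cells, at 144, 137 and 173 CPM in the unstimulated and 549.9, 619, 621 and 529 CPM in the stimulated libraries. Of 22 NRF2 and antioxidant genes 3 rose and 1 fell. Txnrd1, a thioredoxin reductase, rose by 3.30, and the cystine carrier Slc7a11 by 2.39 on the log2 scale, while the partner chain of that carrier, Slc3a2, had 202, 192 and 207 CPM in the unstimulated and 45.7, 115, 104 and 90.1 CPM in the stimulated libraries and fell by 1.18. Slc3a2 was lost with the library index (edgeR adjusted p = 0.0994).

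Of 23 glucose uptake and hypoxia genes, Egln3, an oxygen sensor of the HIF pathway, had 6.62, 13.7 and 3.93 CPM in the unstimulated and 243, 298, 240.2 and 209 CPM in the stimulated libraries. The glucose carrier Slc2a1 had 146, 178 and 166 CPM in the unstimulated and 399, 321, 271 and 303 CPM in the stimulated libraries and the lactate carrier Slc16a3 1053, 949.6 and 1063 CPM in the unstimulated and 565, 711, 551.1 and 673 CPM in the stimulated libraries. Slc2a1 thus rose by 0.98 and Slc16a3 fell by 0.71 on the log2 scale, and Egln3 rose by 4.93. Ptgs2, the inducible cyclooxygenase, had 293, 284 and 725 CPM in the unstimulated and 1240.5, 1367, 1478 and 1579 CPM in the stimulated libraries, with unstimulated library 73 high, and was lost with the index (edgeR adjusted p = 0.306). Cited2 (log2 fold change 2.09) and Trib1 (1.29) rose in the list of PI3K and FOXO-linked genes. Trib1 lost its call in the S521 libraries alone (edgeR adjusted p = 0.0636). Hspa5, the endoplasmic reticulum chaperone BiP, rose by 0.80 and Adrbk1, a receptor kinase, by 1.12, and both were lost with the index (edgeR adjusted p = 0.148 and 0.4). The polyamine enzyme Odc1 (1.11, edgeR adjusted p = 0.0437) and the sterol desaturase Sc5d (-0.82, edgeR adjusted p = 0.0458) overlapped between groups and were lost in 9 and 11 of 19 alternatives, Odc1 without each of libraries 72, 73, 80 and 81 and Sc5d without each of libraries 71, 72, 80, 81 and 83. By edgeR, 0 of 34 interferon-stimulated genes, 0 of 13 cytosolic heat shock genes, 0 of 22 lysosome and autophagy genes and 0 of 6 glucocorticoid and clock genes passed, with 1, 0, 3 and 1 at an unadjusted p under 0.05 and 0 in each list by DESeq2. Irf1, Cxcl10 and Cxcl11 thus rose with 0 of the 34 genes of the interferon list passing.

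The lowered genes were scattered over functions, and 19 of the 61 were in any of the lists. Dusp6 had the smallest p, with the values above and an edgeR adjusted p of 1.28e-09 for a log2 fold change of -2.15 ± 0.16 (standard error). Osgin1, an inhibitor of growth that oxidative stress induces, had 808, 658 and 761 CPM in the unstimulated and 229, 217, 193 and 319.9 CPM in the stimulated libraries. Plk3, a polo-like kinase of the stress response, had 1091, 952 and 1101 CPM in the unstimulated and 282, 442, 488 and 541 CPM in the stimulated libraries. The 3 genes fell by 2.15, 1.63 and 1.26 on the log2 scale, and library 83 was the highest stimulated library in each. The receptor signaling list held 4 lower genes and 1 higher gene (Adrbk1) of 15 tested. Arrdc3, an arrestin-like adaptor that sends receptors to degradation, had 556.9, 455 and 417 CPM in the unstimulated and 139.7, 142, 191 and 247 CPM in the stimulated libraries. Rgs2, which shuts off G protein signals, had 821, 854 and 895 CPM in the unstimulated and 295, 313, 239 and 392 CPM in the stimulated libraries. Txnip, an arrestin-like protein that binds thioredoxin and restrains glucose uptake, had 2797, 3354 and 1796 CPM in the unstimulated and 1139.9, 1388, 1144 and 981 CPM in the stimulated libraries. In the latter gene library 73 was nearest to the stimulated ones, and the call was lost with the index (edgeR adjusted p = 0.446), while Arrdc3 and Rgs2 passed there. Rgs1, named after its values were seen, went from 34.5 ± 2.63 (SD, n = 3) to 3.36 ± 2.47 (SD, n = 4) CPM.

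The other lowered genes with the smallest p had mixed roles. Pnrc2, an adaptor of mRNA decapping, had 252, 256 and 216 CPM in the unstimulated and 125, 108, 79.6 and 117 CPM in the stimulated libraries. Srsf1, a splicing factor, had 91.9, 69.6 and 115 CPM in the unstimulated and 27.0, 31.1, 34.1 and 24.6 CPM in the stimulated libraries. F630028O10Rik, a noncoding transcript on chromosome X from 96239926 to 96243636 whose annotated span holds the gene of the myeloid microRNA miR-223 on the same strand, had 883, 789 and 676 CPM in the unstimulated and 304, 433, 399.7 and 349 CPM in the stimulated libraries. Each of the 3 was lower in every stimulated library, with log2 fold changes of -1.17, -1.66 and -1.07. The count table does not measure mature miR-223. The kinase gene Stk17b had 2512, 2531 and 2957 CPM in the unstimulated and 1547, 1545, 1409 and 1672 CPM in the stimulated libraries. The glycogen-targeting phosphatase subunit Ppp1r3b had 323, 359 and 376 CPM in the unstimulated and 148, 123, 176 and 205 CPM in the stimulated libraries. AW011738 had 95.3, 119 and 169 CPM in the unstimulated and 16.4, 34.2, 25.0 and 61.1 CPM in the stimulated libraries. Stk17b showed the smallest fall of these (-0.79) and AW011738 fell by 1.90. Further lowered genes, named after their values were seen, were the kinase Sik1 (from 592 ± 179 (SD, n = 3) to 173 ± 65.7 (SD, n = 4) CPM), the linker histone Hist1h1c (from 867 ± 217 (SD, n = 3) to 512 ± 104 (SD, n = 4) CPM) and the iron exporter Slc40a1 (from 1018 ± 97.3 (SD, n = 3) to 706 ± 25.7 (SD, n = 4) CPM). Also named after their values were seen, and at low levels, 1810011H11Rik, 4930563E22Rik, Sgsm3 and Pomt2 had 93, 101, 97 and 58 counts in the 3 unstimulated and 0 in the 4 stimulated libraries, and Ppp5c had 111 against 1. The number of lowered genes was the least stable count: it was 32 to 70 with a library left out in turn (lowest without library 73, highest without library 83) and 24 with the index in the model, of which 22 were among the 61.

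**Figure D4:**
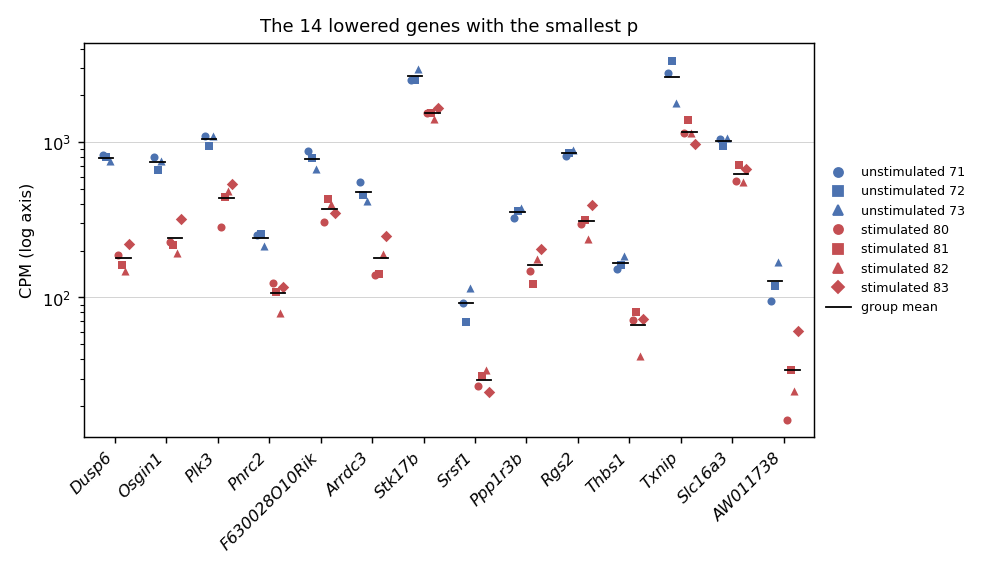
CPM on a log axis in each unstimulated (blue) and stimulated (red) control library for the 14 lowered genes with the smallest p, with a black bar at each group mean. All 4 stimulated libraries lie below all 3 unstimulated libraries for each of the 14 genes, and library 73 is the lowest unstimulated library for Txnip.

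The changed genes were not spread evenly over the libraries in which library of a group was highest or lowest. Among the 260 genes that rose, library 83 was the lowest stimulated library for 122 (46.9%), against 19.9% of all tested genes, and library 73 was the highest unstimulated library for 120 (46.2%), against 34.9% of all. Among the 61 that fell, library 83 was the highest stimulated library for 29 (47.5%, against 24.5% of all) and library 73 the highest and library 71 the lowest unstimulated library for 29 each (47.5%). Whether libraries differed in the size of the response was not tested. Without library 83 the test called 334 genes, and without library 73 it called 251.

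Neutrophils of LTβRΔN mice, which lost the receptor through Mrp8-Cre in neutrophils, were stimulated in 5 and unstimulated in 4 libraries of their own, and 344 genes changed there (3.73%). The 2 comparisons share no library, but both come from the same fit, with shared spread per gene, filter and scaling. Their calls are therefore not independent. Of the 260 genes raised in control neutrophils 258 were above 0 and 217 passed there, and of the 61 lowered genes 59 were below 0 and 36 passed. Calls in the same direction made up 78.8% of the control and 73.5% of the LTβRΔN calls. For the difference between the responses itself, edgeR's interaction test called 0 of 9213 genes, with 342 at an unadjusted p under 0.05 and 44 of these among the 321, and DESeq2 also called 0, with 356 at an unadjusted p under 0.05. Il23a rose by 9.61 in control and 8.50 in LTβRΔN neutrophils on the log2 scale, Cd14 by 3.07 and 2.52, and Dusp6 fell by 2.15 and 2.08. Among the classes, 23 of 29 transcription factors, 22 of 22 secreted factors and 33 of 39 receptors also passed in the same direction. Srsf1 was at -1.66 in control and -0.53 in LTβRΔN neutrophils, and Id2 at -1.64 and -0.87, neither of which passed in LTβRΔN (edgeR adjusted p = 0.252 and 0.195) nor by the interaction. A difference that misses this threshold is not shown to be absent. Of the 5 stimulated LTβRΔN libraries the deepest had 8575222 counts and the others at most 2728981.

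**Figure D5:**
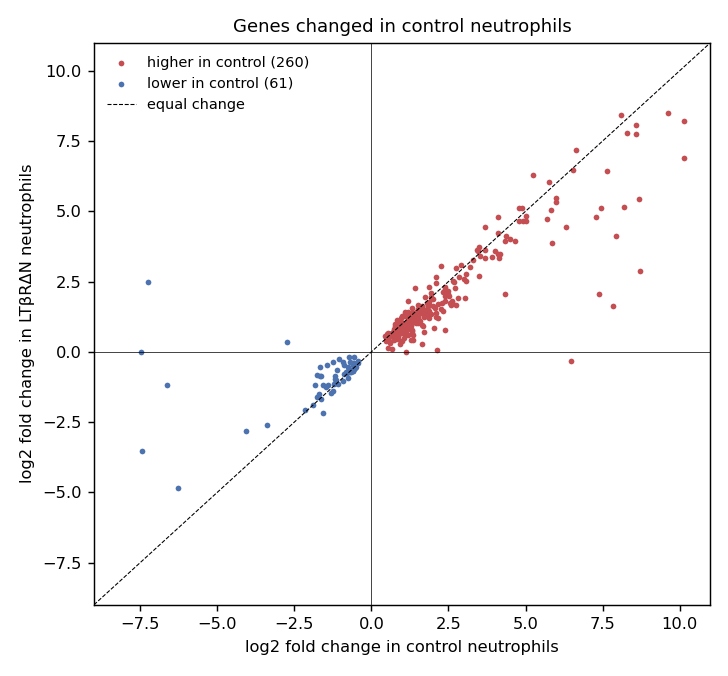
Log2 fold change with stimulation in control (horizontal axis) and LTβRΔN neutrophils (vertical axis) for the 260 genes that rose (red) and the 61 that fell (blue) in control neutrophils, with a dashed line of equal change. 258 of the red points lie above 0 and 59 of the blue points below 0 on the vertical axis, and the point farthest from the line is Sgsm3, with 0 counts in the stimulated control libraries.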

How the data were processed

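Bulk RNA-Seq of blood neutrophils gave 16 libraries, of which the 7 control libraries enter the comparison. What the authors deposited is a single table with raw counts for each gene symbol, not normalized. The submitters' processing notes name Bowtie 1.0.0, TopHat 1.4.1, HTSeq 0.7.1 and build mm10. The annotation, the strand setting and the test used by the authors are not given in the sources used here.

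Groups were taken from the labels. Genes were kept by edgeR's filterByExpr (minimum count 10, minimum total 15), which left 9213 of 23337 symbols. The model was edgeR's (version 4.0.16, R 4.3.3, TMM factors, 1 coefficient per group over all 16 libraries, quasi-likelihood test), and Benjamini-Hochberg adjusted p under 0.05 counted as changed. Rose and fell are used only of genes that passed. Standard errors were derived from the fitted coefficient and its F statistic. CPM was computed with TMM factors.

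Transcription factor, secreted, receptor and pathway lists were written with earlier results of these data known. Genes named are up to 6 per direction and class with the smallest p, up to 2 per direction and pathway list, and the 8 higher and 14 lower genes with the smallest p over all. Others are said to be named after their values were seen, which also holds for each gene in the promoter and family paragraphs that this rule does not name. Lists are described by counts, with no set test.

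Promoter windows come from RefSeq (GRCm38.p6) and matched 7427 of the tested genes by symbol or, where the symbol was not found, by a unique synonym. Gene places come from GENCODE M21 on GRCm38, of which mm10 is another name. No promoter on chromosome 18 is shown. Of 69 genes named by rule, 3 overlap another gene on the same strand and 16 on the other, and reads of overlapping genes cannot be told apart here.

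On simulated counts with 200 changed genes among 9213, the test recovered 1.5%, 22.5% and 55% of 1.5-fold, 2-fold and 4-fold changes in the control comparison, with 0, 2 and 8 false calls among 3, 47 and 118. Library pairs of a control group differed by more than counting noise (chi-square per degree of freedom 21.3 to 50.4), and each was counted as 1 sample. Alternatives were other scalings, filters and thresholds, DESeq2 1.42.0, edgeR's glmTreat, a fit of control libraries only, the library index, a block for the column number, and each control library left out in turn.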

Additional observations from a re-analysis of the deposited data

Results flagged for a closer look

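Of 79 sets of 4 stimulated control libraries examined, 5 had a library farther from the others than Dixon's 95% limit for groups of 4, where chance gives about 3.95. Nfkbiz had 1617.9 CPM in library 80, above 1112 to 1191 CPM in the other 3, all above the unstimulated libraries. Trib1 had 1398 CPM in library 81, below 1556 to 1569.8 CPM in the other 3. The summed T and NK cell markers were 16.1 CPM in library 81 against 7.12 to 8.32 CPM in the others. The summed basophil and mast cell markers were 0.793 CPM in library 82 and 0 in the others. The summed erythroid markers were 6.08 CPM in library 80 against 0.125 to 0.949 CPM in the others. The part of these libraries in the changes of Nfkbiz and Trib1 shows in the fits without them, where both genes kept their call.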

How the results depend on the processing

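All 321 genes kept their sign under every alternative that gave them a value. They were chosen from the same libraries and nearly all had groups without overlap, so this is not separate support. Higher and lower genes numbered 260 and 61 in the comparison as reported. The number of lower genes was 272 with library totals only, 92 with DESeq2 (428 genes in all, with 19 adjusted p-values missing), 32 in a fit of control libraries only and 28 at an adjusted p under 0.01. With the library index as a covariate 157 genes changed, 133 higher and 24 lower, with 16 transcription factors and 21 surface receptors. With the control libraries of index S521 only, 1 against 4, where the lone unstimulated library is assumed to vary like the other groups, 153 changed, 132 higher and 21 lower, with 17 transcription factors and 20 receptors. Against a 1.5-fold change, glmTreat gave 169, 149 higher and 20 lower, with 13 transcription factors. With at least 10 counts in every control library 13 of 73 tested secreted factors changed, beside 314 of 6186 tested genes in all. Leaving out each control library in turn gave 219 (without library 72) to 334 (without library 83) changed genes, 185 to 264 higher and 32 to 70 lower, and the lower count was 37, 34 and 32 without libraries 71, 72 and 73. In 87 of 1305 fits of single named genes the call was lost, and in 0 a called sign turned. The cause of these shifts was not tested. Column names carry a number shared by 3 pairs of control libraries, with correlations of 0.033, 0.067 and 0.043. Each library of a pair correlated best with its own number. Such low values cannot decide whether a pair came from the same mouse, and the libraries were not paired in the comparison as reported. A replicate block for the column number gave 324 genes, 251 higher and 73 lower. It kept 278 of the 321 calls, and 47 of the 61 for lower genes. At this depth most of the simulated 2-fold changes were missed.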

Other observations

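Library 82, which held the highest platelet and immature neutrophil sums, had Pf4 at 86.9 CPM against 2.27 to 11.4 CPM in the other control libraries, and Ngp, a granule protein of maturing neutrophils, at 369.7 CPM against 42.2 to 154 CPM. Chi3l3, a gene of maturing neutrophils, was at 47.0 CPM in library 82 and 23.5 CPM in library 83, and under 5 CPM in the other 5. Without library 82, 287 of the 321 genes were called in the same direction.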
